A study of Mus musculus with 48 samples.

Results

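The 44 collagen chain genes of the mouse transcriptome were followed across the sorted endothelium and cardiomyocytes of mice given angiotensin II. They were taken as every protein-coding gene, of 54752 genes in the TPM matrix, whose symbol is Col, a number, the letter a and a number. By the collagen family that each chain builds, 11 were classed as fibrillar, 8 as basement membrane (the 6 type IV chains and the multiplexins Col15a1 and Col18a1) and 25 as other. TPM is a transcript level scaled for gene length and library total, so levels of different chains can be set side by side. The study had 48 libraries from 13 male C57BL/6 mice that carry eGFP at the endogenous Prox1 locus, labelled as 8 to 16 months old. The study's methods give ages in weeks, so the unit of age is uncertain, and the labelled values were used as the covariate. Mice received saline with BSA (ctrl), angII with BSA (angII) or angII with VEGFCc156s, a VEGFR3-selective form of VEGFC (angII+VEGFC), from minipumps. Heart LECs, diaphragm LECs, heart BECs and cardiomyocytes had 4 ctrl, 5 angII and 3 angII+VEGFC libraries each. LECs (CD31+, eGFP+) and BECs (CD31+, eGFP-) were sorted after exclusion of CD45.2+ cells, whereas cardiomyocytes were pelleted at low speed from digested hearts and not sorted. All animals carried the reporter, and no group without minipump was present.

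Collagens are trimers of alpha chains, and each chain has its own gene. Fibrillar chains (types I, II, III, V, XI, XXIV and XXVII) assemble into the tensile fibres of the interstitium, made in the heart mainly by fibroblasts. Type IV chains form the sheet-like network of basement membranes under endothelium and around cardiomyocytes, and the multiplexins XV and XVIII are anchored in it. Most of the remaining chains form beaded filaments (type VI), short-chain networks (types VIII and X), fibril-associated collagens and transmembrane collagens.

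The sorted populations carried their defining transcripts. Lymphatic markers (Prox1, Lyve1, Flt4, Pdpn, Ccl21a and Reln) summed to between 16281 and 40272 TPM in LECs and to at most 672 TPM in BECs. Fibroblast markers (Pdgfra, Dpt, Dcn, Lum, Tcf21, Gsn and Mmp2) were present in all 4 populations, and their sum ran from 952 to 2511 TPM for heart LECs, from 293 to 2493 TPM for those of the diaphragm, from 956 to 13006 TPM for heart BECs and from 6373 to 11690 TPM for cardiomyocytes. Libraries that stood apart were heart BECs of mice 1 (ctrl), 3 (angII) and 2 (angII+VEGFC), with fibroblast sums of 13006, 7123 and 7887 TPM, and diaphragm LECs of mice 9 (ctrl) and 18 (angII), with 1818 and 2493 TPM. The cardiomyocyte library of angII+VEGFC mouse 8 stood apart in its collagen levels, as given below. The number of reads behind each value is unknown, because TPM keeps no depth.

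Basement membrane chains dominated endothelial collagen, and fibrillar chains dominated in cardiomyocytes. Summed over the 44 genes, collagen transcripts of heart LECs came to 587 to 1548 TPM (median 1177) and those of diaphragm LECs to 918 to 1676 TPM (median 1168). Heart BECs had 1619 to 3068 TPM and cardiomyocytes 1038 to 5232 TPM (median 2704). The basement membrane share of that sum had a median of 78.6% for heart LECs, 77.4% for LECs of the diaphragm and 87.4% for heart BECs, against 19.9% for cardiomyocytes. The fibrillar share had medians of 9.63%, 12.1%, 6.56% and 58.8% in the same order. In heart BECs the fibrillar share reached 29.8% in mouse 1, the library with the highest fibroblast markers.

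**Figure D1:**
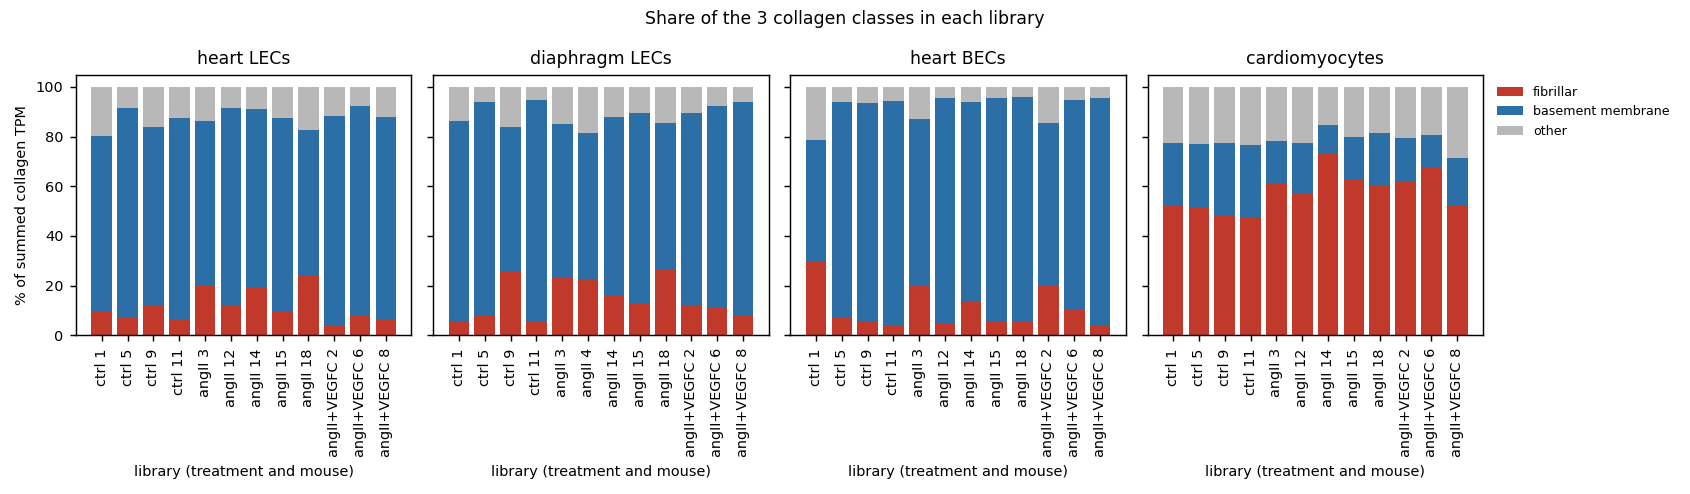
Share of summed collagen TPM (%, vertical axis) taken by fibrillar, basement membrane and other chains, with 1 bar per library named by treatment and mouse. Blue (basement membrane) fills most of each LEC and BEC bar except heart BEC mouse 1 at 48.6%, and red (fibrillar) takes 47.7% to 73.2% of each cardiomyocyte bar.

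A few genes made up most of the collagen RNA. In heart LECs, Col4a1, Col18a1 and Col4a2 held 74.1% of the mean collagen TPM. The same chains held 72.2% in diaphragm LECs, led there by Col18a1. In heart BECs, Col4a1 and Col4a2 alone held 77.5%. Cardiomyocyte libraries were led by Col3a1 (31.3%) and Col1a2 (17.0%). Among type VI and V chains, cardiomyocyte medians were 172 TPM for Col6a2, 162 TPM for Col6a1, 61.0 TPM for Col5a2, 37.9 TPM for Col5a1 and 19.4 TPM for Col5a3, against 25.5, 31.9, 22.8, 5.09 and 5.97 TPM in heart BECs. Fibril-associated Col16a1 and Col14a1 had cardiomyocyte medians of 38.7 and 24.1 TPM and were at most 20.6 and 13.3 TPM in heart LECs. Col6a3 stayed at or below 16.4 TPM everywhere, and Col22a1, a collagen of tissue junctions, exceeded 10 TPM only in cardiomyocyte libraries, up to 24.3 TPM. Of the 44 genes, 23 reached a mean of 10 TPM in at least 1 of the 12 groups (8 fibrillar, 5 basement membrane and 10 other), 10 were at 1 TPM or more in every library, and 15 stayed below 10 TPM in every library. None was at 0 throughout or always below 1 TPM. At least 1 TPM in 3 libraries of a population, the filter used for testing, was met by 35 members for heart LECs, 34 for LECs of the diaphragm, 30 for heart BECs and 36 for cardiomyocytes. Libraries were unstranded, and 28 members overlap another annotated gene, 18 of them on the other strand, so reads at those overlaps cannot be assigned with certainty.

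**Figure D2:**
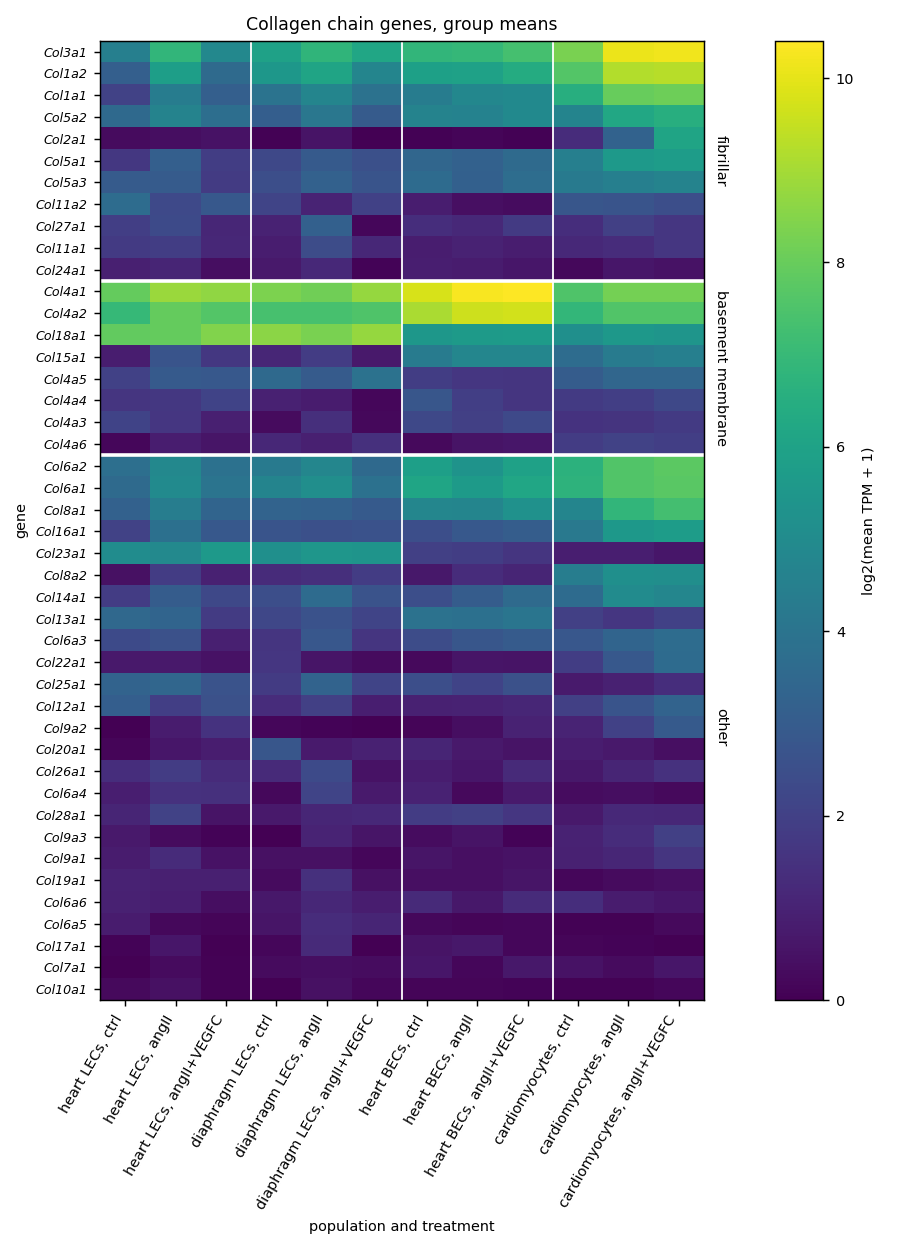
Heat map of log2(mean TPM + 1) for the 44 genes (rows, grouped by class) in the 12 groups of population and treatment (columns). Col4a1 and Col4a2 are brightest in heart BECs, Col18a1 and Col23a1 in both LEC populations, and Col3a1, Col1a2 and Col1a1 in cardiomyocytes.

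Col4a1 and Col4a2, which encode the chains of the ubiquitous type IV trimer, are transcribed away from each other on chromosome 8 (GRCm38). The start of Col4a1 (11198423 to 11312826, minus strand) and that of Col4a2 (11312805 to 11449287, plus strand) lie 21 bases apart, so that the annotated genes overlap by 22 bases. Their promoter windows (RefSeq, GRCm38.p6, 250 bases before to 50 after the start) are shown because they share 78 bases, printed in capitals on each gene's own strand, in windows chr8:11312555-11312854 for Col4a2 and chr8:11312777-11313076 for Col4a1.
Col4a2: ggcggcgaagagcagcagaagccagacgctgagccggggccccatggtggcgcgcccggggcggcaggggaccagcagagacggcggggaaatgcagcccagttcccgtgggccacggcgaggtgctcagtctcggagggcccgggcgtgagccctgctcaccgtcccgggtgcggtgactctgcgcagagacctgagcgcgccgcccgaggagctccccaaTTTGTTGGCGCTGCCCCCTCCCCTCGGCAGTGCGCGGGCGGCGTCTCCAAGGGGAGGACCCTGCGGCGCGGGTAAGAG
Col4a1: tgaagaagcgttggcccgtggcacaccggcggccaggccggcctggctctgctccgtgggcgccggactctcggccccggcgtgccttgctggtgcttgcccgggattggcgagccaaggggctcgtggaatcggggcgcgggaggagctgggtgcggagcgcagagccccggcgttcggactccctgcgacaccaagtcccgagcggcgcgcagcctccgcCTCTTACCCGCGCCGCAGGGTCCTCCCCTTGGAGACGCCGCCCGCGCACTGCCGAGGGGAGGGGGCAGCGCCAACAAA
The shared stretch holds 1 GGGCGG match in Col4a2 orientation and no CCAAT or TATAAA match.

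Both genes were highest in heart BECs. Col4a1 ranged from 600.5 to 1561 TPM in that population (median 1126), from 143 to 556 TPM in heart LECs, from 197 to 492 TPM among LECs of the diaphragm and from 92.1 to 468 TPM for cardiomyocytes. Col4a2 ranged from 369 to 971 TPM, 66.6 to 312 TPM, 119.8 to 215 TPM and 61.4 to 304 TPM in the same order. No heart LEC or cardiomyocyte library overlapped the heart BEC range for either gene. Compared with heart BECs, heart LECs were lower by a log2 difference of -1.68 ± 0.12 (SE) for Col4a1 (limma, adjusted p = 8.04e-13) and -1.97 ± 0.13 for Col4a2 (adjusted p = 7.5e-14), in all 12 mice. In cardiomyocytes the log2 differences from heart BECs were -2.26 ± 0.19 (limma adjusted p = 2.32e-10) and -2.20 ± 0.19 (limma adjusted p = 2.17e-10). Heart and diaphragm LECs differed by 0.07 ± 0.12 and 0.05 ± 0.13 on the log2 scale, within their error. In bulk RNA, fewer cells of a type and less RNA per cell cannot be told apart.

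The ratio between these chains was unequal between LECs and BECs. Col4a1 exceeded Col4a2 in all 4 populations, with a mean TPM ratio (± SD, n = 12) of 2.00 ± 0.30 for heart LECs, 1.95 ± 0.32 for LECs of the diaphragm, 1.62 ± 0.09 for heart BECs and 1.57 ± 0.09 for cardiomyocytes. Within a mouse, the log2 ratio (of TPM + 1) was higher in heart LECs than in heart BECs by 0.28 ± 0.19 (SD, 10 of 12 mice, two-sided exact sign-flip permutation test, p = 0.00195, Benjamini-Hochberg adjusted over 6 ratio comparisons 0.00586). Diaphragm LECs exceeded heart BECs by 0.30 ± 0.19 in 11 of 11 mice (exact permutation p = 0.000977, the smallest this test can give, adjusted 0.00586). Cardiomyocytes differed from heart BECs by -0.06 ± 0.11 (exact permutation p = 0.104, adjusted 0.208). The ratio of Col1a1 to Col1a2, the chains of type I collagen, did not pass in any of 3 comparisons. Its mean was 0.54 ± 0.38 for heart LECs, 0.44 ± 0.15 for LECs of the diaphragm, 0.37 ± 0.07 for heart BECs and 0.43 ± 0.07 for cardiomyocytes (SD, n = 12 each). Its differences from heart BECs were 0.33 ± 0.92, 0.19 ± 0.69 and 0.15 ± 0.35 on the log2 scale for heart LECs, diaphragm LECs and cardiomyocytes (SD over mice, exact permutation adjusted p = 0.312, 0.396 and 0.249).

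Across the transcriptome, 17.6% of 32754 genes differed between heart LECs and heart BECs (8.94% higher in heart LECs and 8.64% higher in heart BECs), and 17 of 43 collagen genes tested did so. Of these, 5 were higher in heart LECs and 12 in heart BECs. Members had a median log2 difference of -0.18, against 0.15 over all genes. By class, 6 of 8 basement membrane, 5 of 11 fibrillar and 6 of 24 other chains differed. Between ctrl libraries alone 9 members passed. The share of all genes called in that smaller fit is not given, so the lower count cannot be told apart from fewer calls over all genes. After quantile normalization 4 members were higher and 16 lower, and over all genes 2306 were higher and 3380 lower in place of 2929 and 2831.

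Col18a1 and Col23a1 were the LEC-high chains with no overlap between libraries. Col18a1 (chromosome 10, 77052178 to 77166548, minus strand), the multiplexin whose C-terminal fragment is endostatin, had 164 to 351 TPM in heart LECs (median 264) and 238 to 557 TPM in diaphragm LECs (median 373). Heart BECs had 31.3 to 64.3 TPM and cardiomyocytes 23.8 to 63.7 TPM. The difference between heart LECs and heart BECs was 2.47 ± 0.13 (log2, SE, limma adjusted p = 1e-16, higher in 12 of 12 mice). Col23a1 (chromosome 11, 51289920 to 51583918, plus strand), a transmembrane collagen, had 11.8 to 67.2 TPM in heart LECs and 16.9 to 77.9 TPM in diaphragm LECs, whereas heart BECs had 1.19 to 4.08 TPM and cardiomyocytes at most 2.02 TPM. Its difference was 3.21 ± 0.28 (limma adjusted p = 3.43e-11, 12 of 12 mice). Within sequencing batches 1 and 2 the difference was 2.27 and 2.59 for Col18a1 and 2.28 and 3.97 for Col23a1. Lower-level chains higher in heart LECs were Col11a2 (2.20 ± 0.33), a minor fibrillar chain, Col12a1 (1.32 ± 0.25), a fibril-associated collagen, and Col4a5 (0.80 ± 0.28). The Col4a5 call was lost with a pseudocount of 0.1, no filter, quantile normalization, the number of genes at 1 TPM as a covariate, ctrl libraries only and in 16 of 24 fits that left out 1 library. Col18a1 overlaps the protein-coding gene Slc19a1 in the annotation.

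Col15a1 (chromosome 4, 47208161 to 47313167, plus strand), the other multiplexin, had the opposite distribution. Heart BECs had 13.9 to 36.7 TPM (median 24.9) and cardiomyocytes 8.87 to 32.5 TPM, whereas heart LECs had at most 7.43 TPM and diaphragm LECs at most 6.78 TPM. The heart LEC minus heart BEC difference was -2.95 ± 0.24 (limma adjusted p = 6.35e-12), with no overlap between libraries and the same direction in 12 of 12 mice. Col13a1, a transmembrane collagen, was also lower in heart LECs (-1.20 ± 0.25), as were Col8a1 (-1.28 ± 0.24), a short-chain collagen of vascular matrix, and Col4a3 (-0.72 ± 0.25). The Col4a3 call was lost with a pseudocount of 0.1, no covariates, the fibroblast sum as a covariate, ctrl libraries only and in 17 of 24 fits without 1 library. Within batches 1 and 2, the log2 difference was -2.75 and -2.99 for Col15a1, -1.59 and -1.71 for Col4a1, and -1.80 and -2.07 for Col4a2.

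Several fibrillar and type VI chains were lower in heart LECs than in heart BECs. Col1a2 differed by -1.67 ± 0.37, Col3a1 by -1.29 ± 0.38, Col1a1 by -1.22 ± 0.36, Col5a2 by -0.86 ± 0.24, Col6a1 by -1.48 ± 0.36 and Col6a2 by -1.52 ± 0.48. The fibroblast-marker-high heart BEC libraries held the highest values of Col1a1, at 63.6 TPM in mouse 3, 53.3 TPM in mouse 1 and 52.7 TPM in mouse 2, while the other 9 lay between 4.54 and 30.6 TPM. Libraries above 5000 TPM of fibroblast markers in heart BECs or 1500 TPM in diaphragm LECs were then left out, cuts set after the data were seen. No heart LEC library was left out, although their sums reached 2511 TPM. The heart BEC libraries left out held the highest Col1a1, so a smaller Col1a1 difference followed from the choice. Without the 5 libraries of high fibroblast markers, 12 of the 17 members still differed. The share of all genes called in that fit is not given, so lost calls cannot be told apart from a change over all genes. Col1a1 (-0.70 ± 0.26, adjusted p = 0.0749), Col3a1 (-0.73 ± 0.29, adjusted p = 0.094), Col5a2, Col6a2 and Col4a3 then missed the threshold, and Col1a2 (-1.16 ± 0.23) and Col6a1 (-0.91 ± 0.24) kept it (limma). With all libraries and the fibroblast sum as a covariate, 16 of the 17 members were called and only Col4a3 was lost. The share of all genes called is not given for that fit either. Of the fibroblast markers themselves, 5 of 7 were lower in heart LECs, and Pdgfra, a receptor that marks cardiac fibroblasts, was higher (2.18 ± 0.37). Their part in the collagen differences was not tested further.

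**Figure D3:**
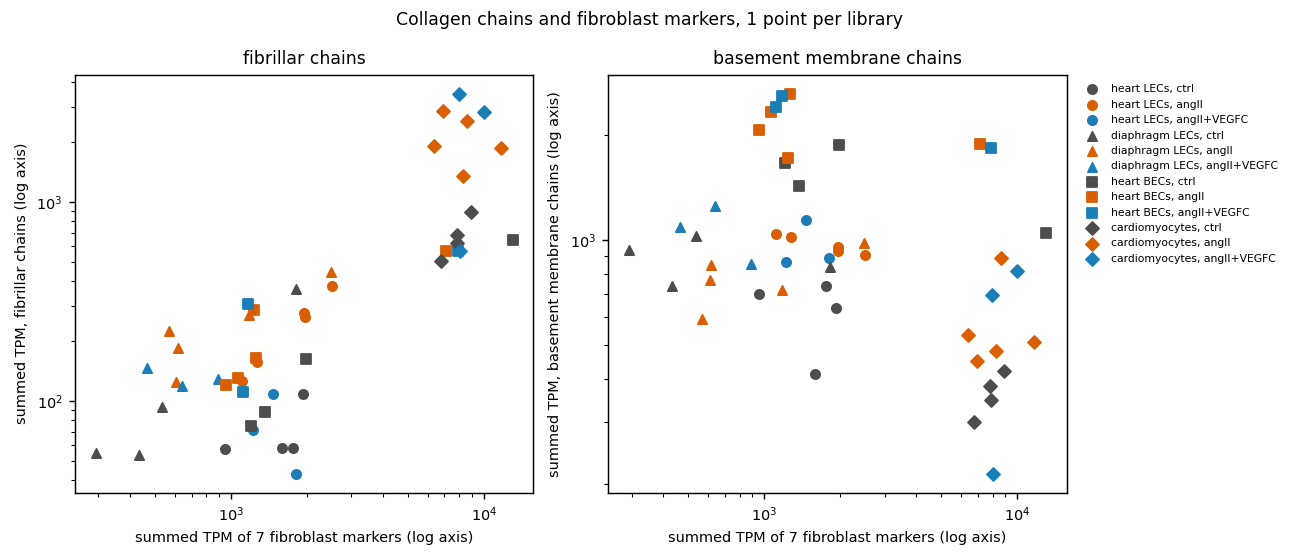
Summed TPM of fibrillar chains (left, log axis) and of basement membrane chains (right, log axis) against the summed TPM of 7 fibroblast markers (log axis), with 1 point per library, shape for population and colour for treatment. Heart BEC mouse 1 lies at 642 TPM of fibrillar chains and 13006 TPM of markers, and angII heart LECs (126 to 379 TPM) lie above ctrl heart LECs (57.2 to 109 TPM) at overlapping marker sums.

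Cardiomyocyte libraries carried more of most fibrillar and filament chains than heart BECs. Of 40 members tested, 31 differed (23 higher in cardiomyocytes and 8 higher in heart BECs), where 74.8% of 23213 genes did, 10.8% higher in cardiomyocytes and 64.1% higher in heart BECs. The median log2 difference was 0.87 over members and -0.61 over all genes, and 9 of 11 fibrillar chains were higher. All cardiomyocytes were in a sequencing batch of their own, so batch and population cannot be told apart in this contrast. The largest difference was in Col8a2, which pairs with Col8a1 in type VIII networks, at 7.82 to 56.5 TPM against 0.216 to 1.95 TPM (3.75 ± 0.26, limma adjusted p = 6.63e-12). Col1a1 (3.02 ± 0.38), Col1a2 (2.85 ± 0.33), Col3a1 (2.84 ± 0.41), Col16a1 (2.35 ± 0.27), Col6a2 (2.10 ± 0.35) and Col6a1 (1.70 ± 0.32) were higher in at least 11 of 12 mice. The 7 fibroblast markers were also higher in cardiomyocyte libraries, 7 of 7, as were 7 of 8 mural cell markers. The part of other cell types in these collagen levels was not tested. After quantile normalization, 27 members were higher and 5 lower, the median over all genes moved from -0.61 to -0.14, and 4861 genes were called higher and 6815 lower in place of 2504 and 14870. Signs changed there for Col15a1 (-0.50 to 0.28), Col18a1 (-0.25 to 0.57, then called) and Col4a4 (-0.06 to 0.44, then called).

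Between heart and diaphragm LECs, 4.56% of all genes and 6 of 43 members differed. Higher in heart LECs (2.67% of all genes) were Col4a4 (1.14 ± 0.23, limma adjusted p = 0.00174), Col4a3 (0.89 ± 0.25), Col12a1 (0.96 ± 0.25) and Col11a2 (1.11 ± 0.33). Higher in diaphragm LECs (1.88% of all genes) were Col18a1 (-0.46 ± 0.13) and Col4a5 (-0.94 ± 0.28). Only Col4a4 kept its call in each of the 24 fits without 1 library, and Col4a5 lost it in 19. Col4a3, Col4a4 and Col4a5 encode the chains of the minor type IV network known from the kidney filter and lung, and Col4a3 and Col4a4 start 72 bases apart on opposite strands of chromosome 1. Fibroblast markers (3 of 7) and cardiomyocyte markers (5 of 8) were also higher in heart LECs, and none was lower. Levels were low, with a median of 2.06 TPM for Col4a4 in heart LECs and 0.439 TPM in diaphragm LECs. Between ctrl libraries alone, 0 of the 6 passed, in a smaller fit whose share of all genes called is not given. With the fibroblast sum as a covariate 11 members passed, with Col4a4 and Col4a5 kept, the other 4 lost, and Col1a1, Col1a2, Col3a1 and 6 others gained. The share of all genes called in that fit and the directions of the gained members are not given. The fibroblast sum itself had ctrl medians of 1678 TPM in heart LECs and 485 TPM in diaphragm LECs. This covariate and the population are therefore partly aligned, and their parts cannot be told apart. Quantile normalization lost Col11a2, Col12a1 and Col18a1 and gained Col4a6 and Col6a5. With it 2 members were higher and 3 lower in heart LECs, the median over all genes moved from 0.10 to -0.01, and 605 genes were called higher and 735 lower in place of 875 and 617.

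Within heart LECs, Col1a2 was higher after angII, and no other chain passed. Col1a2 (GRCm38 chromosome 6, 4504814 to 4541544, plus strand), which encodes the alpha 2 chain of type I collagen, was at 2.22, 7.54, 9.32 and 12.4 TPM in ctrl libraries and at 35.3, 36.3, 57.2, 61.4 and 92.4 TPM in angII libraries. The groups did not overlap, and Col1a2 rose by 2.84 ± 0.42 on the log2(TPM + 1) scale (SE, limma adjusted p = 0.0293). That made 1 of 35 members, beside 0.0261% of 26803 genes. Col1a1 was at 1.73, 2.78, 3.07 and 4.87 TPM in ctrl and at 7.51, 14.2, 16.4, 28.1 and 30.8 TPM in angII libraries. Col3a1 (chromosome 1, 45311538 to 45349706, plus strand), the type III chain, was at 12.2, 13.7, 20.2 and 39.7 TPM in ctrl and at 44.2, 55.4, 122, 139.9 and 203 TPM in angII. Neither gene's groups overlapped, with log2 differences of 2.15 ± 0.44 for Col1a1 (limma adjusted p = 0.114) and 2.20 ± 0.42 for Col3a1 (limma adjusted p = 0.102). Both missed the threshold.

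No basement membrane chain passed in this comparison. Col4a1 was at 143, 232, 293 and 323 TPM in ctrl heart LECs and at 417, 435, 438, 470.0 and 556 TPM in angII heart LECs, a difference of 0.97 ± 0.23 (limma adjusted p = 0.168). Col4a2 was at 66.6, 123, 139 and 174 TPM in ctrl and at 188, 211, 254, 263 and 312 TPM in angII (0.98 ± 0.26, limma adjusted p = 0.22). Col15a1 was at 0.0373, 0.112, 0.160 and 2.87 TPM in ctrl and between 4.27 and 7.43 TPM in angII (2.11 ± 0.56, limma adjusted p = 0.222). Col18a1 did not separate, at 189 to 263 TPM in ctrl and 164 to 309.9 TPM in angII.

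All 5 angII libraries lay above all 4 ctrl libraries for 8 of 35 members (Col1a1, Col1a2, Col3a1, Col4a1, Col4a2, Col5a1, Col15a1 and Col16a1), where 2.13% of all genes did, and none lay below. The median log2 difference was 0.73 over members and 0.23 over all genes. It was positive in 29 of 35 members and in 67.2% of all genes, and 15 of 35 members and 10.9% of all genes had an unadjusted p under 0.05. After quantile normalization, which brought the median over all genes from 0.23 to -0.01, 23 of 35 members and 49.1% of all genes were positive, and Col1a2 differed by 2.88 (limma adjusted p = 0.107). Medians by class were 1.22 for 10 fibrillar, 0.84 for 8 basement membrane and 0.67 for 17 other chains. Within batches 1 and 2, the difference was 2.27 and 3.34 for Col1a2, 2.01 and 2.36 for Col1a1, and 1.76 and 2.78 for Col3a1.

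Markers of other cells moved with this contrast in part. The summed fibroblast markers overlapped between ctrl (952 to 1926 TPM) and angII (1111 to 2511 TPM) heart LECs. Among them Mmp2, a matrix protease, differed by 1.79 ± 0.32 and Lum, a fibril-binding proteoglycan, by 1.02 ± 0.30, whereas Pdgfra differed by -0.83 ± 0.32 and Dcn by -0.53 ± 0.21 (limma adjusted p from 0.0884 to 0.383). All 8 mural cell and all 8 cardiomyocyte markers had positive differences, with medians of 1.59 and 1.03. Their sums ran from 46.8 to 391.8 TPM (mural) and from 161 to 458 TPM (cardiomyocyte) in ctrl, and from 119 to 862 TPM and from 189 to 1092 TPM in angII. Lymphatic markers summed to 21255 to 29899 TPM in ctrl and 16281 to 23413 TPM in angII, and blood endothelial markers to 1868 to 2521 TPM and 2155 to 3957 TPM. Mesothelial markers summed to at most 5.32 TPM in ctrl and to 3.38 to 219 TPM in angII, highest in mouse 3. The angII libraries had 19957 to 25896 genes at 1 TPM or more against 16131 to 24086 in ctrl. With the fibroblast sum as a covariate, Col1a2 differed by 2.80 ± 0.43 and Col3a1 by 2.10 ± 0.33 (limma adjusted p = 0.0509 for both). The parts of the other marker lists were not tested. Leaving out single libraries kept the Col1a2 difference between 2.47 and 3.39, with adjusted p from 0.0147 to 0.194, and the call was lost without ctrl mouse 5 or 11 or angII mouse 3, 14, 15 or 18. Without angII mouse 12, Col3a1 also passed (2.44, limma adjusted p = 0.0147).

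The promoter windows of Col1a2 (RefSeq, GRCm38.p6, chr6:4505368-4505667, plus strand) and Col3a1 (chr1:45311288-45311587, plus strand) are shown as those of the leading fibrillar chains. Capitals mark CCAAT (either strand, ATTGG on the reverse), TATAAA (forward strand) and GGGCGG (either strand, CCGCCC on the reverse).
Col1a2: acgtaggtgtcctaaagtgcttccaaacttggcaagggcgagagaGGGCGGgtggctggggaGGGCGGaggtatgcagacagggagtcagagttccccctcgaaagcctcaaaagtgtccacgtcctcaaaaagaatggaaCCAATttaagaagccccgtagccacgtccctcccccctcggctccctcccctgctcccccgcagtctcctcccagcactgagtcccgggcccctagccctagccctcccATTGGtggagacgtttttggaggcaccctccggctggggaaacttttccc
Col3a1: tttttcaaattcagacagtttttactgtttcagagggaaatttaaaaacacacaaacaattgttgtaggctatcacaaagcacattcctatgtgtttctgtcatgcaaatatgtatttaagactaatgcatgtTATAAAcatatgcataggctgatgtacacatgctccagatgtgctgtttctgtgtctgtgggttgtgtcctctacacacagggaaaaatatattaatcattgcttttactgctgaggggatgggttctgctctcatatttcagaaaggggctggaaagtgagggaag
The Col1a2 window held 2 CCAAT matches and 2 GGGCGG matches, and the Col3a1 window held 1 TATAAA match, 117 bases before the start. Of 32851 RefSeq promoter windows, 37.4% held CCAAT, 8.32% held TATAAA and 35.7% held GGGCGG. For 38 windows of the 35 matched collagen genes, the shares were 34.2%, 13.2% and 60.5%.

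Adding VEGFCc156s to angII gave fibrillar values in heart LECs between or near those of ctrl and angII, and no gene passed. Col1a2 was at 4.78, 11.2 and 17.1 TPM in angII+VEGFC heart LECs, below all 5 angII libraries. The difference from angII was -2.44 ± 0.50, with an unadjusted p of 0.000171 that became 0.385 after adjustment in limma (0.131 to 0.831 over the alternatives). Col3a1 was at 16.5, 25.6 and 42.3 TPM (-1.64 ± 0.50) and Col13a1 differed by -2.06 ± 0.66 (limma adjusted p = 0.413 for both). Col18a1 was at 338, 346 and 351 TPM, above all 5 angII libraries (0.62 ± 0.24, limma adjusted p = 0.422). Below every angII library lay 7 of 35 members and 7.33% of all genes, and above every one lay 1 member and 0.825% of all genes. None of the 35 members passed (0% of all genes), and 8 of 35 members and 10.8% of all genes had an unadjusted p under 0.05. Differences were negative in 28 of 35 members, with a median of -0.70 over members and -0.37 over all genes. After quantile normalization the median was -0.28 over members and 0.01 over all genes. Against ctrl, no member passed either (0% of all genes), 5 of 35 members and 4.94% of all genes had an unadjusted p under 0.05, and the leading members were Col13a1 (-2.02 ± 0.64), Col4a1 (0.73 ± 0.26) and Col18a1 (0.59 ± 0.23). These 2 comparisons and that of angII with ctrl share libraries. Within batches 1 and 2, Col1a2 was lower than in angII by -1.50 and -2.79, with a single angII+VEGFC library in batch 1.

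**Figure D4:**
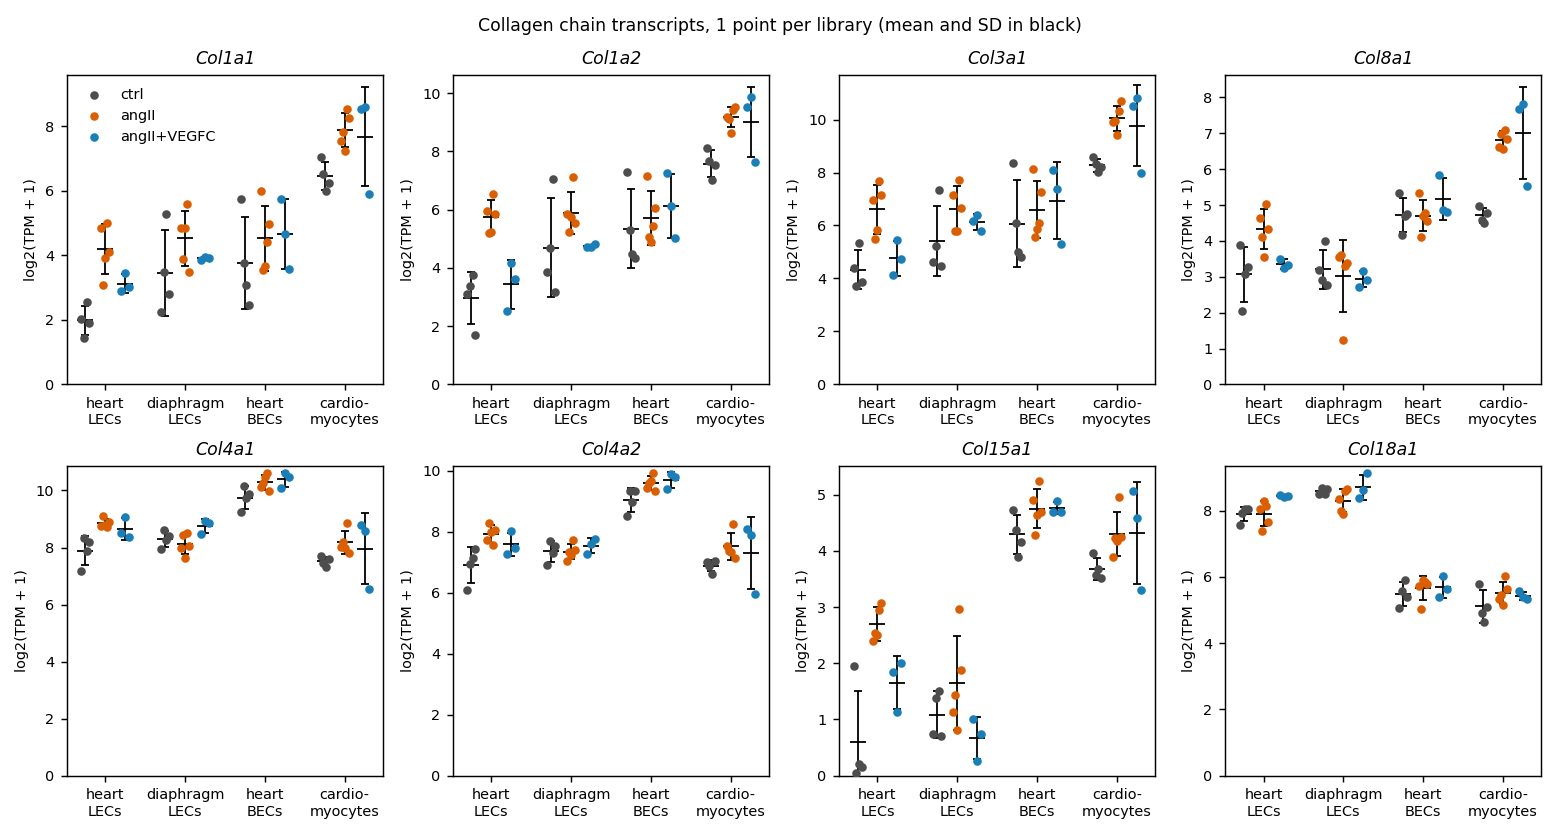
log2(TPM + 1) of 8 collagen genes (panels) in each library, grouped by population and coloured by treatment, with mean and SD in black. In heart LECs the angII points for Col1a1, Col1a2 and Col3a1 lie above all ctrl points, and in cardiomyocytes a single angII+VEGFC point (mouse 8) lies at the ctrl level for Col1a1, Col1a2 and Col3a1.

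In diaphragm LECs no collagen gene passed in any comparison (limma, 0% of 23839 genes in each). For angII against ctrl, 7 of 34 members and 15.3% of all genes had an unadjusted p under 0.05, led by Col6a4 (1.61 ± 0.50), Col6a3 (1.45 ± 0.47) and Col25a1 (1.51 ± 0.51), each with adjusted p = 0.297. With the number of genes at 1 TPM as a covariate, Col25a1 turned to -0.38. Col1a2 was at 7.93, 13.7, 24.6 and 133 TPM in ctrl and at 36.4, 45.6, 53.1, 56.7 and 136 TPM in angII, so the groups overlapped through ctrl mouse 9, a library with high fibroblast markers. Fibrillar chains had a median of 0.96 and basement membrane chains of -0.18, against 0.28 over all genes. All angII libraries lay above all ctrl libraries for 3 members (Col6a3, Col6a4 and Col11a1), and for 4.78% of all genes. After quantile normalization 18 of 34 members were positive, in place of 25. For angII+VEGFC against angII, 4 of 34 members and 8.78% of all genes had an unadjusted p under 0.05, led by Col27a1 (-2.33 ± 0.68), a fibrillar chain, Col4a1 (0.55 ± 0.21) and Col5a2 (-1.02 ± 0.44). For angII+VEGFC against ctrl no member did, beside 1.32% of all genes, and Col3a1 differed by 1.05 ± 0.55.

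In heart BECs no member passed in any comparison (limma, 0% of 21281 genes in each). For angII against ctrl the leading members were the vascular basement membrane chains Col4a2 (0.57 ± 0.18, unadjusted p = 0.00691), Col4a1 (0.57 ± 0.19) and Col15a1 (0.50 ± 0.20), with adjusted p from 0.785 to 0.888. Col4a1 was at 600.5, 843, 945 and 1151 TPM in ctrl and at 999, 1101, 1237, 1425 and 1561 TPM in angII. Its groups overlapped through ctrl mouse 5. For no member did all angII libraries lie above all ctrl libraries, while 0.982% of all genes did so. For angII, 5 of 30 members had an unadjusted p under 0.05, 4 of them basement membrane chains, as had 5.40% of all genes. Against ctrl, angII+VEGFC differed by 0.60 ± 0.20 for Col4a2, 0.58 ± 0.22 for Col4a1 and -1.21 ± 0.39 for Col4a4, and 3 of 30 members and 5.51% of all genes had an unadjusted p under 0.05. Against angII 1 of 30 did, Col26a1 (0.72 ± 0.32), beside 2.59% of all genes.

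**Figure D5:**
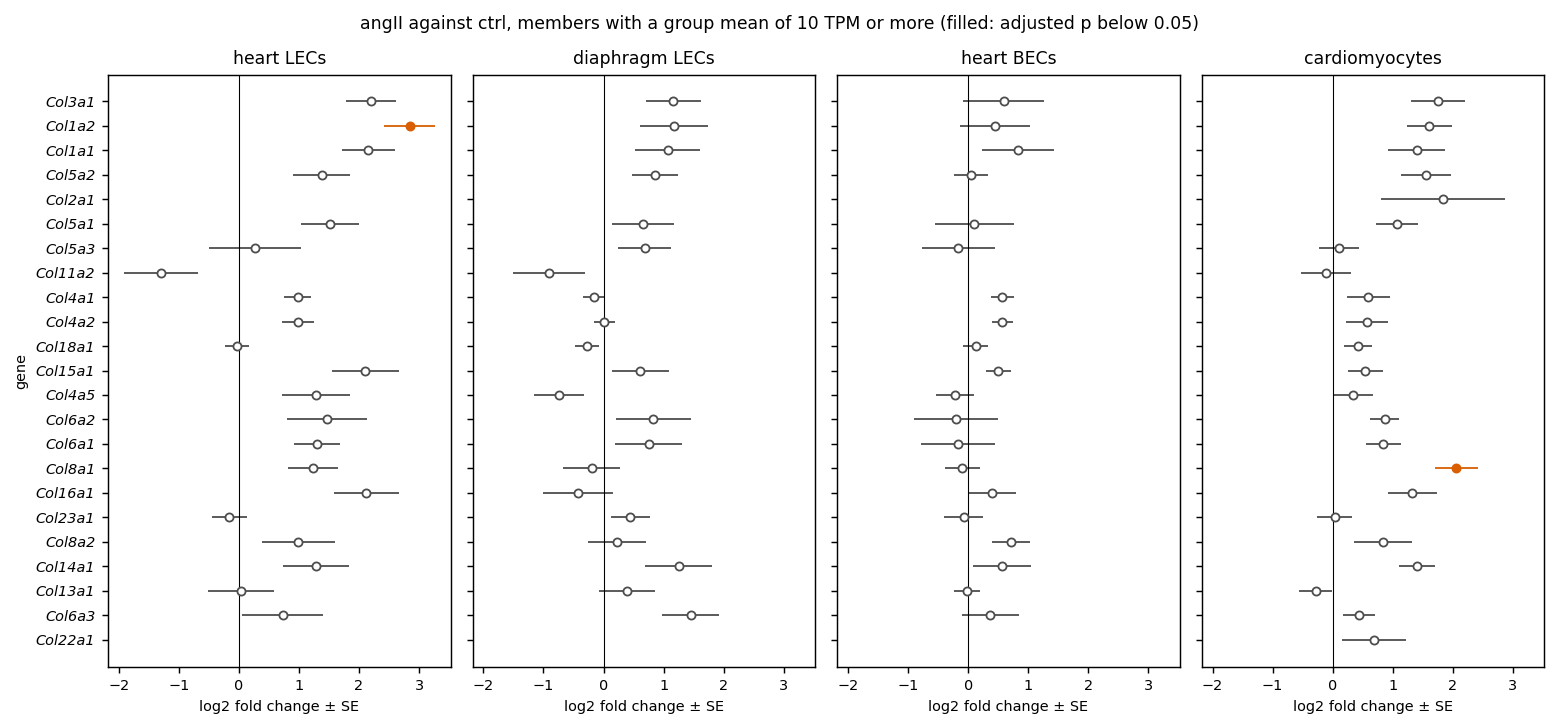
log2 fold change of angII against ctrl (horizontal axis, with SE) for the members with a group mean of 10 TPM or more, in each population, with filled points where the limma adjusted p is below 0.05. Filled points are Col1a2 in heart LECs (2.84) and Col8a1 in cardiomyocytes (2.06), and a member that did not pass the filter has no point.

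Cardiomyocyte libraries of angII mice had more Col8a1 (chromosome 16, 57624258 to 57754737, minus strand), a short-chain collagen. It was at 21.6, 22.8, 26.6 and 30.7 TPM in ctrl, at 93.0, 97.0, 114, 126 and 136 TPM in angII, and at 45.5, 205 and 223 TPM in angII+VEGFC. Both treated groups lay above ctrl without overlap, as did 5.1% of all genes with angII and 9.19% with angII+VEGFC. Col8a1 rose by 2.06 ± 0.35 with angII (SE, limma adjusted p = 0.046) and by 2.37 ± 0.41 with angII+VEGFC against ctrl (limma adjusted p = 0.0264). It was the only one of 36 members that passed in each, beside 0.0892% and 0.663% of 15691 genes. The call with angII was lost without any single library (adjusted p from 0.0524 to 0.256, difference between 1.90 and 2.19). That with angII+VEGFC was lost without any single ctrl library or mouse 2 or 6 (adjusted p from 0.0505 to 0.195), and after quantile normalization 133 genes were called higher and 193 lower there in place of 61 and 43.

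Other chains had positive differences in the same comparisons without passing. With angII, Col14a1, a fibril-associated chain, differed by 1.40 ± 0.30 (adjusted p = 0.0864), Col3a1 by 1.75 ± 0.45, Col1a2 by 1.61 ± 0.38, Col5a2 by 1.56 ± 0.41 and Col1a1 by 1.39 ± 0.47 (limma adjusted p from 0.115 to 0.295). Col3a1 was at 256, 295, 317 and 384 TPM in ctrl and at 691, 958, 976, 1266 and 1659.9 TPM in angII. Every angII library lay above every ctrl library for 13 of 36 members, where 5.1% of all genes did, and 1 member, Col6a6, lay below. Members had a median of 0.56 and all genes 0.12, and 33 of 36 members and 68.3% of all genes were positive. After quantile normalization 30 of 36 members and 49.6% of all genes were positive, and 2 members, Col8a1 and Col14a1, passed. The share of all genes called in that fit is not given, so the added call cannot be told apart from a change in calls over all genes. The fibroblast marker sum overlapped between ctrl (6769 to 8892 TPM) and angII (6373 to 11690 TPM), with Mmp2 at 1.26 ± 0.26 and Lum at 0.82 ± 0.19. Leukocyte markers did not overlap, with sums of 417 to 556 TPM in ctrl, 583 to 1259 TPM in angII and 628 to 1338 TPM in angII+VEGFC, and their part in the collagen differences was not tested. With the fibroblast sum as a covariate Col8a1 differed by 2.01 with angII (adjusted p = 0.0851) and by 2.33 with angII+VEGFC (adjusted p = 0.0516).

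The angII+VEGFC group of cardiomyocytes was split. Mice 2 and 6 had Col1a1 at 374 and 385 TPM, and mouse 8 at 58.9 TPM, below every ctrl library. Col3a1 was at 1469 and 1778 TPM in mice 2 and 6 and at 255 TPM in mouse 8. The total of all collagen transcripts was 4609 and 5232 TPM against 1092 TPM in mouse 8, within the ctrl range of 1038 to 1694 TPM. The mouse 8 library had 19306 genes at 1 TPM or more, the most of any cardiomyocyte library, and a fibroblast marker sum of 8050 TPM, where mice 6 and 2 had 7995 and 10027 TPM. Without mouse 8, 16 of 35 members passed against ctrl, beside 5.71% of 14910 genes, among them Col8a1 (3.04 ± 0.21), Col3a1 (2.36 ± 0.29), Col5a2 (2.33 ± 0.26), Col1a1 (2.10 ± 0.34), Col1a2 (2.09 ± 0.27) and Col4a1 (1.17 ± 0.26). Mouse 8 was singled out by its collagen values, so this count is no independent test of them. Only mice 2 and 6 then remained in the angII+VEGFC group. Against angII, none passed with mouse 8 (0% of all genes, 0 of 36 with unadjusted p under 0.05) or without it. Without mouse 8, some members had an unadjusted p under 0.05, all with positive differences. Mouse 8 was singled out by its low collagen values, so positive differences from angII follow from leaving it out. They are no independent result. Col8a1 led these members (0.93 ± 0.20, limma unadjusted p = 0.000494, adjusted 0.967). Negative differences in that fit were those of Col18a1, Col6a6, Col27a1, Col23a1 and Col28a1. The share of all genes under 0.05 in that fit is not given. Col2a1, the cartilage fibril chain, was at 196 TPM in mouse 6 alone and at 30.0 TPM or less in the other 11 cardiomyocyte libraries.

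The promoter window of Col8a1 (RefSeq, GRCm38.p6, chr16:57754688-57754987, minus strand) is shown as that of the chain called in cardiomyocytes, with GGGCGG matches, all read as CCGCCC, in capitals.
Col8a1: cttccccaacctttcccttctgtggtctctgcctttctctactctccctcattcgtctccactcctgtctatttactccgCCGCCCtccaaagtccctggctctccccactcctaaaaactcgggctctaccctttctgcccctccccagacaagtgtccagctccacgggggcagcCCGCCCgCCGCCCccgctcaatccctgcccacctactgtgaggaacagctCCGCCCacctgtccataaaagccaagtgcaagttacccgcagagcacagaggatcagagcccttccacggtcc
It held 4 GGGCGG matches within 170 bases before the start and no CCAAT or TATAAA match.

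Whether treatment differences were unequal between populations was tested by interaction terms over the 36 endothelial libraries. No member passed for angII against ctrl between heart LECs and heart BECs (0% of 32754 genes), between diaphragm LECs and heart BECs (0%) or between heart LECs and diaphragm LECs (0.00611%), nor for angII+VEGFC against angII in the same pairs (0%, 0% and 0%). For angII against ctrl, 7, 5 and 8 of 43 members had an unadjusted p under 0.05 in the same order, beside 7.19%, 11.0% and 9.70% of all genes. For angII+VEGFC against angII, 6, 6 and 3 members did, beside 6.43%, 7.00% and 4.88%. The smallest p between heart and diaphragm LECs was for Col4a1, whose angII difference was larger in heart LECs by 1.15 ± 0.28 (limma adjusted p = 0.194), with Col4a2 at 1.02 ± 0.30. Between heart LECs and heart BECs, the Col1a2 difference was larger in heart LECs by 2.42 ± 0.84 (limma adjusted p = 0.56). The Col1a2 call in heart LECs is not shown to differ from that in the other endothelial populations.

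Genes that process collagen were followed beside the chains. Of 31 genes for biosynthesis and processing, 30 were tested in cardiomyocytes, and P4ha3, a prolyl 4-hydroxylase subunit, rose with angII (1.45 ± 0.23, limma adjusted p = 0.042) and with angII+VEGFC against ctrl (1.56 ± 0.27, limma adjusted p = 0.026). In these comparisons 0.0892% and 0.663% of all genes passed. Positive differences with angII were seen in 29 of 30, with a median of 0.69 against 0.12 over all genes. The share of all genes with a positive difference is given above for this contrast. Lox, the lysyl oxidase that cross-links collagen, differed by 1.78 ± 0.47. In heart LECs 0 of 31 passed with angII, beside 0.0261% of all genes. Of the 31, 20 were positive, a share no higher than that over all genes given above. The median difference was 0.36, against 0.23 over all genes. The largest were Lox (2.82 ± 0.58) and Pcolce (2.79 ± 0.52), an enhancer of procollagen cleavage (limma adjusted p = 0.114 and 0.0884). Between heart LECs and heart BECs, 10 were higher in heart LECs, among them Loxl2 (2.11 ± 0.26), and 8 in heart BECs, among them the collagen chaperone Serpinh1 (-1.32 ± 0.20). Over all genes, 8.94% were higher in heart LECs and 8.64% in heart BECs in this contrast. Of the collagen receptors, 8 of 10 were tested there. Ddr1 was higher in heart LECs (1.52 ± 0.19), and 4 were higher in heart BECs, led by Itga1 (-1.93 ± 0.14), an integrin subunit that binds type IV collagen. No receptor passed in any treatment comparison within a population.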

How the data were processed

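Values were TPM per gene from low-input RNA-seq of 48 libraries. The authors aligned reads with STAR 2.5.3a to GRCm38 and deposited TPM estimated with Salmon 0.12.0 on Ensembl gene models. TPM holds no read depth, so precision was judged from the spread between libraries. Groups came from the sample labels, and the libraries of a group came from separate mice.

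Ensembl gene IDs were matched to GENCODE M21 (GRCm38) for 54723 of 54752 genes. Genes that reached 1 TPM in 3 or more libraries of a fit were tested on log2(TPM + 1) with limma 3.58.1 (R 4.3.3, mean-variance trend), with age and batch as covariates (age alone where cardiomyocytes were fitted). Benjamini-Hochberg adjustment was over all genes, at 0.05. Fold changes on this scale understate the change of low genes. Population contrasts and interactions were fitted over 36 endothelial libraries, or over the 24 cardiomyocyte and heart BEC libraries. Steps were tested on simulated data.

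Members and lists were chosen with earlier results of these data known. Members are named where a group mean reached 10 TPM, where a call was made, or where p was among the 3 smallest of a within-population comparison. Members outside these were named after their values were seen. Promoter windows came from RefSeq, matched by symbol for 35 of 44 genes.

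The same mouse gave libraries in several populations. Deviations of the libraries of a mouse from their group means had a mean correlation of 0.036 (69 pairs), against -0.010 for 231 pairs of different mice. Alternatives were pseudocount 0.1, no filter, no covariates, the first residual component or the number of genes at 1 TPM as a covariate, quantile normalization, 2 groups only, ctrl libraries only, a mouse block and leaving out single libraries. A fibroblast marker covariate and leaving out the 5 fibroblast-marker-high libraries were added after the data were seen.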

Additional observations from a re-analysis of the deposited data

Results flagged for a closer look

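In groups of 4 or 5 libraries, 8 collagen genes were tested for a single library set apart from the rest (64 groups, where about 1 in 20 is expected by chance), on the log2(TPM + 1) scale. Col15a1 in ctrl heart LECs was set apart by mouse 1, at 2.87 TPM, with a gap of 0.915 of the group's range. Col18a1 in angII heart BECs was set apart by mouse 15, at 31.3 TPM, with a gap of 0.805. Col8a1 in angII diaphragm LECs was set apart by mouse 4, at 1.37 TPM, with a gap of 0.871.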

How the results depend on the processing

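Counts of members called in treatment comparisons rested on 1 gene each and moved with the setting (the cause was not tested). For angII against ctrl in heart LECs the count of 1 became 0 with a pseudocount of 0.1, no filter, the number of genes at 1 TPM as a covariate, quantile normalization, only the 2 groups compared, or the fibroblast sum as a covariate, and it lay between 0 and 2 when single libraries were left out. In diaphragm LECs 0 became 1 (Col6a4) with the first residual component. In cardiomyocytes, angII against ctrl gave 1, and 0 without filter or with the fibroblast sum, 2 with quantile normalization, and 10 with the first residual component, the gene number covariate or only the 2 groups compared, and 0 without any single library. For angII+VEGFC against ctrl there, 1 became 0 without filter, with only the 2 groups compared or with the fibroblast sum. The count was 10 with the first residual component and 12 with the gene number covariate. It ran from 0 to 16 over single libraries left out, with 16 without mouse 8, beside 5.71% of all genes in place of 0.663%. Member counts given without the share of all genes called in the same fit cannot be told apart from a change in calls over all genes. Heart LECs minus diaphragm LECs gave 6, and 2 with the gene number covariate, 11 with the fibroblast sum (2 of them among the 6), 0 in ctrl libraries only, and 2 to 7 without single libraries. Heart LECs minus heart BECs gave 17, and 9 in ctrl libraries only. Col25a1 in diaphragm LECs turned from 1.51 to -0.38 with the gene number covariate. With the mouse as a replicate block, population contrasts called 17, 7 and 31 members in place of 17, 6 and 31, with Col4a6 gained, and no other call changed. Without the pairing of mice, the Col4a1 to Col4a2 log2 ratio differed by 0.28 between heart LECs and heart BECs, and no ratio call changed. Read depth is unknown, and 3 to 5 libraries per group limit the precision.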
